A study of Mus musculus with 12 samples.

Results

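Immediate early genes are switched on within minutes when neurons fire or when cells meet growth factors or stress, without new protein synthesis. In neurons, calcium entering through NMDA receptors and voltage-gated channels activates kinases that act on the transcription factors CREB and SRF at the promoters of these genes. The products are mostly transcription factors, with a few proteins that act at synapses or switch the signal off again, so their transcripts are widely used as a readout of recent activity.

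The genes followed were 10 immediate early genes: the transcription factors Fos, Fosb, Junb, Egr1, Nr4a1 and Npas4, the nuclear protein Ier2, the synaptic protein Arc, the MAP kinase phosphatase Dusp1 and the antiproliferative co-regulator Btg2. They were chosen by symbol, and all 10 of them were found among the 18193 genes with a probe set annotated to a single gene. They had 11 probe sets, since Btg2 had a second one, and each gene was read from its probe set with the highest mean signal. The tests covered the 12598 genes whose mean lay above the filter on dim probe sets, which 6 members passed (Fos, Egr1, Nr4a1, Ier2, Dusp1 and Btg2). Fosb, Junb, Arc and Npas4 were too dim, and their values come from the same model without the filter.

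The samples were RNA from mouse brain, hindbrain and spinal cord, hybridised to 12 Affymetrix expression arrays. There were 3 samples of NR3B knockout mice at postnatal day 0 (P0KO), 3 of wild-type mice at postnatal day 0 (P0WT), 3 of knockout mice at postnatal day 5 (P5KO) and 3 of wild-type mice at postnatal day 5 (P5WT). NR3B, taken here to be the product of Grin3b, is an NMDA receptor subunit. The labels give no strain, sex, deleted exons or treatment, do not say that the knockout is limited to a cell type, and do not state that samples came from separate animals. The p-values therefore describe only how far these samples differ from each other, a spread that may be technical.

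The Grin3b probe set gave a signal of 31.4 to 96.9 in P0KO samples against 198 to 353 in P0WT samples, and of 39.7 to 48.5 in P5KO samples against 155 to 273 in P5WT samples. Whether that probe set lies in the deleted part was not tested. All 10 markers of neurons and 13 of 14 measured Hox genes of the hindbrain and spinal cord passed the filter, as did 4 of 10 measured forebrain markers. The P0WT samples varied most among themselves, with a median SD over genes of 0.269 on the log2 scale, against 0.210 in P0KO, 0.133 in P5KO and 0.119 in P5WT. P0WT sample 1 also stood apart in its 18S ribosomal control signal, at 7728 against 48911 to 110512 on the other arrays. Samples with high Xist, a female transcript, numbered 2 of 3 in P0KO and 2 of 3 in P0WT, but 1 of 3 in P5KO and 0 of 3 in P5WT. In bulk tissue, fewer cells that use a gene and less of its RNA per cell cannot be told apart.

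CREB binds the cAMP response element (CRE), whose full form is TGACGTCA and whose core is TGACG. The stretch of 250 bases before the start of each gene was taken from RefSeq (GRCm38.p6) for 7 members, and those of Arc, Egr1 and Ier2 were not used here. After quantile normalization, Fos and Dusp1 had the genotype values without overlap at both ages described below, which did not pass the test over all genes. Btg2 had the call with age in wild type. The stretches of Fos, Dusp1 and Btg2 are shown for these reasons. They lie on chr12:85473640-85473889 on the plus strand for Fos, on chr17:26508473-26508722 on the minus strand for Dusp1 and on chr1:134079156-134079405 on the minus strand for Btg2. Each is written 5′ to 3′ on its gene's strand, and capitals mark TGACG and TGACGTCA.
Fos: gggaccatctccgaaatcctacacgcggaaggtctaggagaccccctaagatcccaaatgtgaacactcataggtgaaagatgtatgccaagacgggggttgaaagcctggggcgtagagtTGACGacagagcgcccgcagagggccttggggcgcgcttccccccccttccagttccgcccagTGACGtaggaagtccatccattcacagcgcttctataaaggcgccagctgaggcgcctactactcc
Dusp1: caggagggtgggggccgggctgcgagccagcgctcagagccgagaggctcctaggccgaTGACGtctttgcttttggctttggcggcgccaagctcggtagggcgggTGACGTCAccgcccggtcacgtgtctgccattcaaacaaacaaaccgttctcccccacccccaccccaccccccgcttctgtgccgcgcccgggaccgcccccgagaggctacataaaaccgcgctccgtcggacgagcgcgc
Btg2: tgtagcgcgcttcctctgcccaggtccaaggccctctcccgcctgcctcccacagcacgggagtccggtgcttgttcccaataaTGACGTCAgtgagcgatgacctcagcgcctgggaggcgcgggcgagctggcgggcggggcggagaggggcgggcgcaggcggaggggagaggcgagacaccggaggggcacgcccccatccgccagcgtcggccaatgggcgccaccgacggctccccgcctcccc
The Fos stretch held TGACG at 129 and at 66 bases before the start and the TATA box letters TATAAA at 33 bases, while Dusp1 held the full element at 143 bases and Btg2 at 166 bases.

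Searched on both strands, TGACG was present in 7 of 7 member stretches and in 17.8% of the 32851 promoters of the same table. The full element, which contains the core on either strand, was present in 2 of 7 and in 1.55% of all promoters. TATAAA occurred in 1 of 7 against 12.4% of all promoters, the AP-1 letters TGANTCA in 0 of 7 against 6.75%, and the SRF motif (CArG box) in 0 of 7 against 1.47%. In Fosb, Nr4a1 and Npas4 the stretch lies before an internal start rather than the outer end of the gene. A match describes letters and not binding, and no match says only that these letters were not in this stretch.

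Fos was higher in knockout tissue than in wild type at both ages, in every sample, although its difference did not pass the test over all genes. Its protein pairs with Jun proteins to form the AP-1 transcription factor, and it is the most used marker of recently active neurons. At P0, the Fos signal was 3206, 2423 and 2707 in the P0KO samples, against 1424, 2390.0 and 1542 in the P0WT samples. The 2 groups did not overlap, but P0WT sample 2 came close to the lowest knockout sample. The mean was 2779 ± 396 in P0KO and 1785 ± 527 in P0WT (SD, n = 3 each).

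At P5, the Fos signal was 4332, 3701 and 2887 in the P5KO samples, against 2653, 2586 and 2480 in the P5WT samples. The knockout samples were spread out and the wild-type samples were close together, with no overlap. Knockout minus wild type was 0.72 on the log2 scale at P0 (SE 0.21, 95% interval 0.27 to 1.17, limma adjusted p = 0.284) and 0.50 at P5 (SE 0.21, 95% interval 0.050 to 0.95, limma adjusted p = 0.9998). Averaged over both ages it was 0.61, or 1.52-fold (SE 0.15, limma adjusted p = 0.515).

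The unadjusted limma p of that average was 0.00108, which placed Fos 26th of the 12598 genes, with a smaller p in 0.198% of them. The exact two-sided permutation test of the average gave p = 0.005, the smallest value its 400 arrangements allow. Any gene without overlap in the same direction at both ages gets this value, so it restates that order of the samples. Of the 12598 genes tested, 123 (0.976%) had no overlap in the same direction at both ages. At a single age, 3 samples against 3 cannot go below 0.1, and Fos gave 0.1 at each. The difference between the ages in the genotype effect was -0.22 (95% interval -0.85 to 0.41, limma adjusted p = 0.832).

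Fos was not called at P0 in the main fit. Whether it was called turned on the P0WT samples, as for many other genes. P0WT sample 2 had the highest Fos signal of its group. Without it, the Fos difference was 0.98 (limma adjusted p = 0.00367) and 21.3% of all genes were called. Without both P0WT samples 1 and 2, which leaves a single sample in that group, the difference was 0.91. With each sample left out in turn it ranged from 0.55 to 0.98, and leaving out any other single sample gave no Fos call at P0. The average was 0.74 (limma adjusted p = 0.0119) without P0WT sample 2, with 5.9% of genes called. It ranged from 0.53 to 0.74 with each sample left out in turn.

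Dusp1 showed the same order of groups with a smaller difference. The Dusp1 protein removes phosphates from MAP kinases and so limits the signal that induces these genes. Its signal was 5464, 4775 and 4311 in the P0KO samples, against 3794, 4222 and 4312 in the P0WT samples. The lowest knockout sample and the highest wild-type sample were level at P0, and they were separate only after quantile normalization. At P5 the signal was 5494, 5207 and 5139 in the P5KO samples, against 4279, 5119 and 4514 in the P5WT samples, with P5WT sample 2 just below the knockout samples.

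Knockout minus wild type for Dusp1 was 0.28 at P0 (SE 0.13, limma adjusted p = 0.308), 0.21 at P5 (SE 0.13, adjusted p = 0.9998) and 0.24 on average (SE 0.089, 95% interval 0.050 to 0.43, adjusted p = 0.576), on the log2 scale. The exact permutation test of the average again gave p = 0.005, which for Dusp1 too restates the lack of overlap at both ages on the normalized scale. Among all 12598 genes tested, 85 (0.675%) were higher in knockout with no overlap at both ages on the normalized scale, and Fos and Dusp1 were 2 of these.

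**Figure D1:**
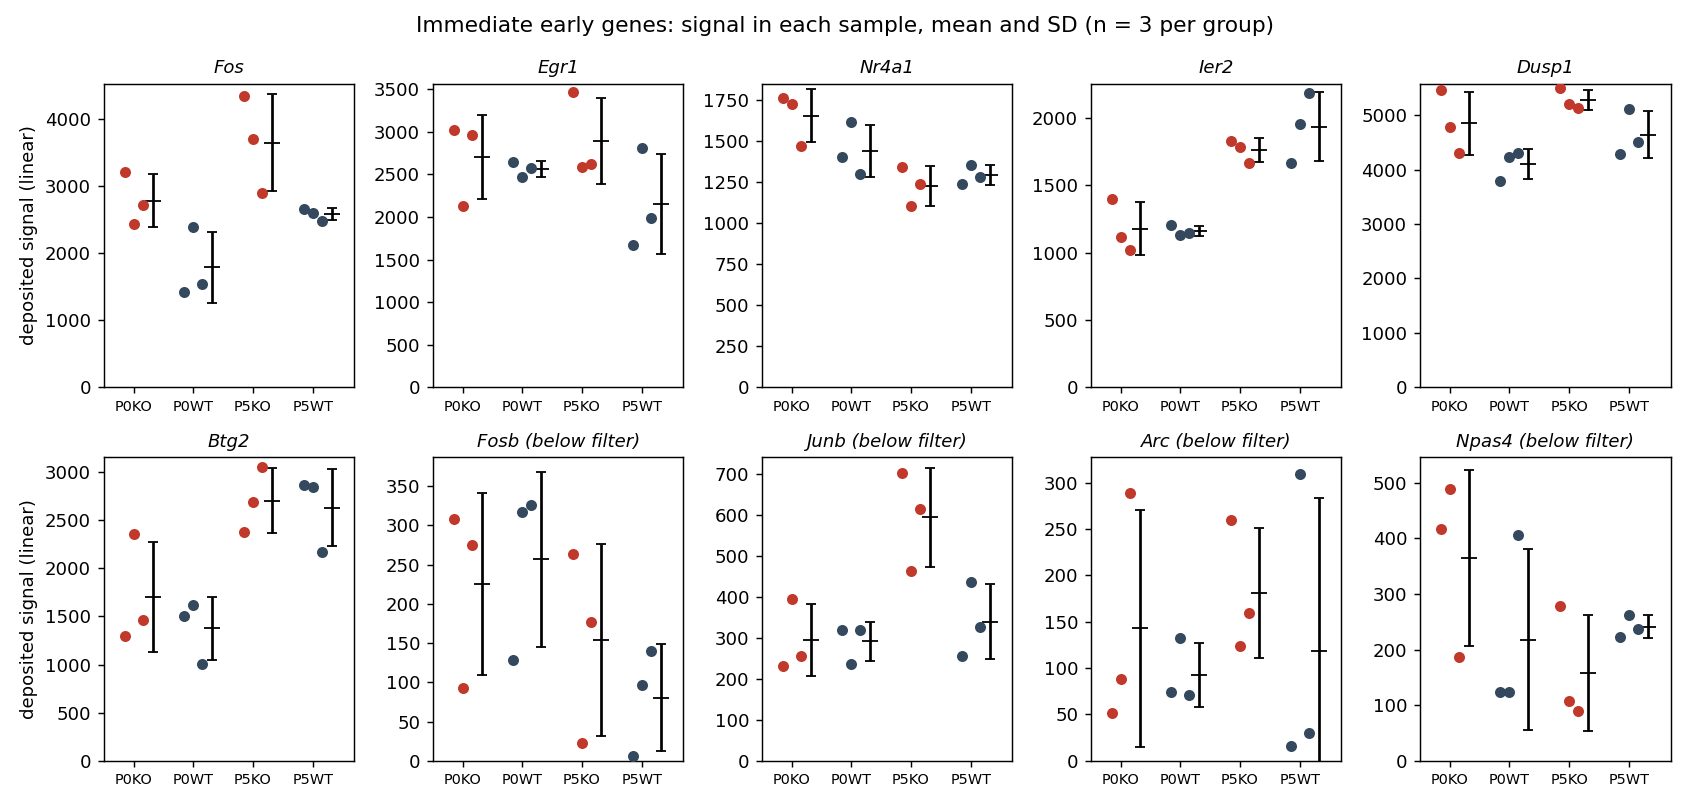
Deposited signal (linear scale) of the 10 immediate early genes in each of the 12 samples, with knockout in red left of wild type in blue at each age. The bars are the mean and SD of 3 samples, and the Fos samples of the knockout lie above those of wild type at both ages.

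Egr1 and Junb, also transcription factors, had unadjusted limma p-values under 0.05 at P5 only. Egr1 encodes a zinc finger factor induced through SRF. Its signal was 3027, 2133 and 2959 in P0KO samples against 2649, 2472 and 2570.2 in P0WT samples, and the knockout samples lay on both sides of the narrow wild-type range. At P5 it was 3472, 2585 and 2624 in the P5KO samples, against 1674, 2808 and 1983 in the P5WT samples. P5WT sample 2 lay above 2 of the knockout samples, so the groups overlapped. The Egr1 difference was 0.11 at P0 (SE 0.19, limma adjusted p = 0.793) and 0.47 at P5 (SE 0.19, unadjusted p = 0.0308, adjusted p = 0.9998).

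Junb encodes a partner of Fos in AP-1. Its signal was 231, 394 and 256 in P0KO samples against 318, 237 and 319 in P0WT samples, which overlapped throughout. At P5 it was 702, 463 and 615 in the P5KO samples against 255, 436 and 326 in the P5WT samples, and every knockout sample was higher. The Junb difference was 0.82 at P5 (SE 0.31, 95% interval 0.15 to 1.49, limma adjusted p = 0.9998) and 0.0049 at P0 (SE 0.31, adjusted p = 0.996). At P5 its unadjusted limma p was 0.0199 and its exact permutation p was 0.1. The difference between those effects was 0.82 (95% interval -0.13 to 1.76, adjusted p = 0.799), so a change of the Junb effect with age was not shown.

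Nr4a1 encodes an orphan nuclear receptor. Its signal was 1765, 1728 and 1469.9 in the P0KO samples, against 1403, 1614 and 1299.7 in the P0WT samples. The knockout samples were mostly higher, but the groups overlapped. At P5 the signal was 1345, 1102 and 1241 in P5KO samples against 1241, 1356 and 1283 in P5WT samples, again with overlap. The Nr4a1 difference was 0.26 at P0 (SE 0.15, limma adjusted p = 0.372) and -0.044 at P5 (SE 0.15, adjusted p = 0.9998).

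Fosb, Arc and Npas4 were dim, and their samples were mostly far apart within a group. Fosb, a close relative of Fos, gave 308, 93.4 and 275 in P0KO samples against 128, 317 and 326 in P0WT samples, and 263, 22.2 and 177 in P5KO samples against 6.33, 96.2 and 139 in P5WT samples. Within the P5 groups its highest and lowest samples differed 11.9-fold in P5KO and 22.0-fold in P5WT. The Fosb genotype difference was -0.20 at P0 (SE 0.84) and 0.89 at P5 (SE 0.84).

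Arc, which regulates glutamate receptors at synapses, gave 51.8, 88.1 and 289 in P0KO samples against 74.5, 132 and 70.7 in P0WT samples. At P5 it gave 259, 124 and 159.9 in P5KO samples against 15.8, 309 and 30.0 in P5WT samples. A single sample was far above the others of its group in P0KO and in P5WT, and the groups overlapped at both ages. The Arc difference was 0.35 at P0 (SE 0.80) and 1.33 at P5 (SE 0.80, 95% interval -0.39 to 3.06).

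Npas4 encodes a transcription factor that responds to calcium influx in neurons. It gave 417, 489 and 187 in P0KO samples against 123, 125 and 405 in P0WT samples, and 279, 108 and 89.0 in P5KO samples against 223, 263 and 237 in P5WT samples. One sample of each P0 group lay among the other group's values, and the groups overlapped at P5 too. The Npas4 difference was 0.82 at P0 (SE 0.52) and -0.66 at P5 (SE 0.52), and its change with age, at -1.48 (SE 0.73, limma adjusted p = 0.799), was not shown. The limma adjusted p of Fosb, Arc and Npas4 by genotype was 0.488 to 0.936 at P0 and 0.9998 at P5.

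Of the 10 members, 0 passed the limma test by genotype at P0, at P5 or on average, with unadjusted p under 0.05 for 2, 3 and 2 of them. Of all genes tested, 0.0238% passed at P0, 0.00794% at P5 and 0.0238% on average, either way. The share with an unadjusted p under 0.05 was 16.1%, 1.85% and 8.63% of genes. The knockout value was higher for 9 of 10 members at P0, 7 at P5 and 9 on average, against 57.6%, 51.5% and 57.5% of all 18193 genes. The members' median difference was 0.27 at P0, 0.34 at P5 and 0.27 on average, against 0.068, 0.0059 and 0.040 over all those genes. On the normalized scale, Fos and Dusp1 at P0, and Fos, Junb and Dusp1 at P5, were the members without overlap, against 10.2% of genes tested at P0 and 12.9% at P5 in either direction. In the test of a genotype effect that differs with age, 0 members and 0 genes were called by limma, and 0 members had an unadjusted p under 0.05 against 4.94% of genes.

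**Figure D2:**
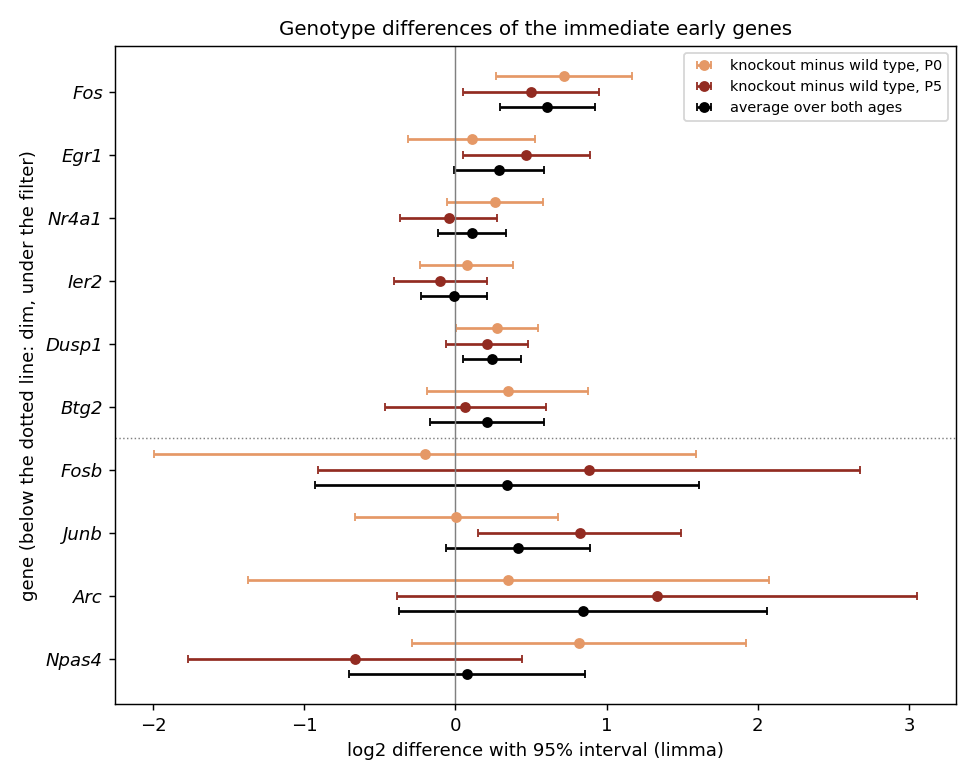
Knockout minus wild type for each immediate early gene at each age and on average (log2 difference, points) with 95% limma intervals (lines). Fos had intervals above 0 in all 3 comparisons, and the dim members below the dotted line had the widest intervals.

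Markers of some other cell types tended to be higher in knockout in the same tissue, although 0 of them were called by genotype. The summed signal of 9 microglial markers was 24826 to 31034 in P0KO samples against 17074 to 25680 in P0WT samples, and 36717 to 38576 in P5KO samples against 29911 to 31705 in P5WT samples. The microglial sums overlapped at P0. On average over both ages 9 of 9 microglial markers were higher in knockout, and 0 passed the test. For 10 markers of meninges and fibroblasts, the sum was 146105 to 179699 in P0KO samples against 74641 to 104528 in P0WT samples, but 174590 to 189484 in P5KO samples against 164901 to 189462 in P5WT samples, which overlapped. The sum of 4 red blood cell genes was 2932 to 4503 in P0KO samples against 1181 to 2090.0 in P0WT samples, and 5325 to 8227 in P5KO samples against 4086 to 6073 in P5WT samples, which overlapped at P5. None of these markers was at 0 in any sample. Other cell types did not all go the same way. On average over both ages, 3 of 8 astrocyte, 4 of 7 endothelial and 1 of 6 oligodendrocyte markers were higher in knockout, and 0 were called. For the 14 measured Hox genes of the hindbrain and spinal cord, the sums overlapped at P0. At P5 their sum was 26166 to 30850 in P5KO samples against 31603 to 32105 in P5WT samples, without overlap. Of the 13 Hox genes tested, 8 were higher in knockout at P0 and 3 at P5, and 0 were called. The part of any of these cell types or regions in the member differences was not tested.

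The neuronal markers gave a sum of 574528 to 623106 in P0KO samples against 514061 to 681865 in P0WT samples, and 439068 to 488728 in P5KO samples against 470054 to 488331 in P5WT samples. These sums overlapped at both ages. Of the 10 neuronal markers, 4 were higher in knockout at P0 (median difference -0.15, 4 with an unadjusted limma p under 0.05) and 1 at P5 (median -0.054, 0 with such a p), and 0 were called by limma at either age. The summed signal of the 10 members at P0 was 14941 to 17157 in P0KO samples against 12628 to 14253 in P0WT samples. At P5 the members' sum was 17646 to 20354 in P5KO samples against 14885 to 17773 in P5WT samples, with a small overlap. Both sums are of linear signals, so bright members weigh most and the sums do not describe every member. The mean at P0 was 2779 in P0KO against 1785 in P0WT for Fos, and 4850 against 4109 for Dusp1. It was 1177 against 1161 for Ier2, 293 against 291 for Junb and 226 against 257 for Fosb.

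Among samples with high Xist, the Fos signal at P0 was 3206 and 2423 in P0KO against 1424 and 2390.0 in P0WT, and among samples with low Xist it was 2707 against 1542. At P5, where P5WT had no sample with high Xist, the low-Xist samples gave 4332 and 2887 in P5KO against 2653, 2586 and 2480 in P5WT. Since the Fos samples of the genotypes did not overlap at either age, these splits could give no other order, and the part of sex was not tested. The actin 3′ to 5′ signal ratio, a measure of RNA integrity, was 1.24 to 1.58 in P0KO against 1.28 to 1.48 in P0WT, and 1.19 to 1.22 in P5KO against 1.19 to 1.26 in P5WT.

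The samples also differed as individuals, and their order is given here on the quantile-normalized log2 scale. It differs in places from the order of the deposited signals, as for Ier2 at P5. P5KO sample 1 was the highest of the 6 P5 samples for 6 members (Fos, Fosb, Junb, Egr1, Npas4 and Dusp1). P5WT sample 1 was the lowest of the 6 for another set of 6 (Fosb, Junb, Egr1, Arc, Ier2 and Dusp1). At P0, the 3 knockout samples held the highest value for 9 of 10 members between them, with 3, 4 and 2 each, and P0WT sample 3 for Fosb. Dusp1 was the member with the profile nearest to Fos over the 12 samples.

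**Figure D3:**
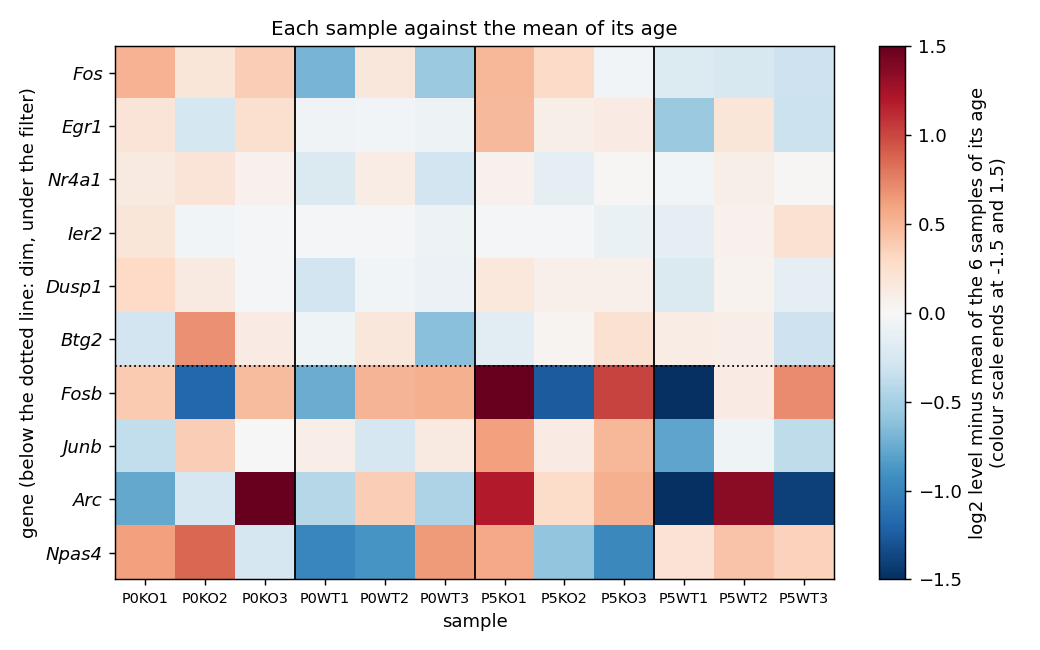
Quantile-normalized log2 level of each immediate early gene in each sample minus the mean of the 6 samples of its age (colour, red above and blue below the mean). P5KO sample 1 was the highest of its age for 6 genes and P5WT sample 1 the lowest for 6.

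Age was tested within each genotype, and Ier2 was the member that rose in both. Ier2 encodes a nuclear protein of the early growth factor response. Its signal was 1832, 1789 and 1666 in the P5KO samples against 1396, 1118 and 1019 in the P0KO samples, and 1669.7, 1953 and 2187 in the P5WT samples against 1206, 1128 and 1148 in the P0WT samples. Every P5 sample was above every P0 sample of either genotype. P5 minus P0 was 0.55 on the log2 scale in knockout (SE 0.14, limma adjusted p = 0.0270) and 0.72 in wild type (SE 0.14, adjusted p = 0.00447), or 1.46-fold and 1.65-fold. By genotype Ier2 differed by -0.012 on average (95% interval -0.23 to 0.21, adjusted p = 0.977).

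The Ier2 call in knockout was lost without P0KO sample 2 or 3 or any 1 of the P5KO samples (limma adjusted p 0.0714 to 0.0955), with differences of 0.51 to 0.57. The call in wild type held in all alternatives run.

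Btg2, a transcript also high in cells that leave the cell cycle to become neurons, rose with age in wild type. Its signal was 2376, 2683 and 3049 in P5KO samples against 1291, 2354 and 1468 in P0KO samples, and 2867, 2847 and 2164 in P5WT samples against 1508, 1617 and 1001 in P0WT samples. P0KO sample 2 stood well above its group, close to the lowest P5KO sample, and after normalization the knockout groups overlapped while the wild-type groups did not. P5 minus P0 was 0.67 in knockout (SE 0.25, limma adjusted p = 0.108) and 0.95 in wild type (SE 0.25, adjusted p = 0.0191). Without P0KO sample 2 the knockout difference was 0.92 (adjusted p = 0.0355). The wild-type call was lost without P0WT sample 3 (adjusted p = 0.0834), P5WT sample 1 (0.0740) or P5WT sample 2 (0.0714).

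The second Btg2 probe set did not show this rise. It gave 977, 1394 and 937 in P5KO samples against 863, 1093 and 1108 in P0KO samples, and 1085, 1221 and 1262 in P5WT samples against 636, 754 and 1323 in P0WT samples. The groups overlapped in both genotypes. The difference was 0.061 in knockout (SE 0.26, limma adjusted p = 0.919) and 0.45 in wild type (SE 0.26, adjusted p = 0.238).

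Of the 10 members, 1 passed the test of age in knockout and 2 in wild type, and all of these were higher at P5. Of all genes tested, 5.53% were called higher in knockout and 10.8% in wild type, and 4.43% in both. Among cell type markers, 6 of 6 for oligodendrocytes were called higher in both genotypes. Of 13 Hox genes, 8 were called lower in knockout and 7 in wild type, and of 10 neuronal markers 2 and 4. Of all genes tested, 4.95% were called lower in knockout and 8.56% in wild type. The part of these marker shifts in the age differences of the members was not tested. Junb differed by 0.996 in knockout (SE 0.31, limma adjusted p = 0.0803) and 0.18 in wild type (adjusted p = 0.766). For Nr4a1 the values were -0.46 in knockout (SE 0.15, adjusted p = 0.0641) and -0.16 in wild type (adjusted p = 0.466), and its 3 P5KO samples lay below the 3 P0KO samples. Without P0WT sample 2, which enters only through the shared spread and the normalization, the Nr4a1 adjusted p in knockout was 0.0357, with 15.6% of genes called. For Fos they were 0.35 in knockout (SE 0.21, adjusted p = 0.335) and 0.57 in wild type (SE 0.21, adjusted p = 0.0703). Without P0WT sample 2 the wild-type value of Fos was 0.83 (limma adjusted p = 0.00194, with 38.3% of genes called). With each sample left out in turn that value ranged from 0.40 to 0.83. On the normalized scale, the members whose P5 and P0 samples did not overlap were Ier2, Junb and Nr4a1 in knockout and Ier2 and Btg2 in wild type, against 33.4% and 35.4% of all genes tested in either direction.

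**Figure D4:**
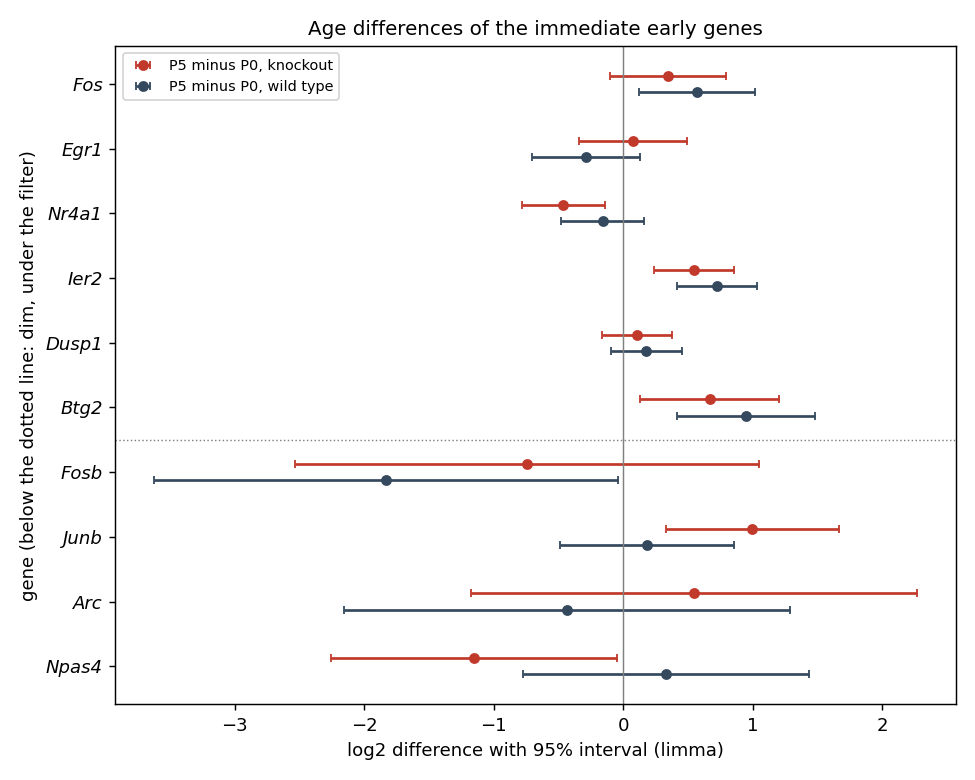
P5 minus P0 for each immediate early gene in knockout (red) and wild type (blue) as a log2 difference (points) with its 95% limma interval (lines). Ier2 passed the test over all genes in both genotypes and Btg2 in wild type, while the interval of Nr4a1 in knockout lay below 0.

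Other genes induced by activity were read from 3 lists. Of 22 further transcription factors, 16 were tested and 0 were called in any comparison of genotype or age. Their median genotype difference was 0.15 on average over both ages, against 0.039 over all tested genes, with 14 of 16 above 0 and 0 with an unadjusted limma p under 0.05. The smallest p-values belonged to Klf4 (0.30, SE 0.17), Myc (0.17, SE 0.11) and Cited2 (0.19, SE 0.12), with limma adjusted p of 0.590, 0.616 and 0.617. Egr2 and Nr4a3, relatives of the members Egr1 and Nr4a1, differed by 0.14 (SE 0.21) and -0.021 (SE 0.19).

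Of 32 effectors and late response genes, 28 were tested and 0 were called by genotype, with a median of 0.053 on average and 4 with an unadjusted limma p under 0.05. Ier3, a stress-induced survival factor, differed by 0.40 (SE 0.12, limma adjusted p = 0.576) and Dusp6, a phosphatase for ERK, by 0.24 (SE 0.10, adjusted p = 0.576). With age, 4 of the 28 rose and 2 fell in knockout, where 5.53% of all genes rose and 4.95% fell, and 7 rose and 2 fell in wild type, where 10.8% rose and 8.56% fell. Dusp5, a nuclear phosphatase for ERK, rose by 1.74 in knockout (SE 0.40, adjusted p = 0.0140) and by 1.71 in wild type (SE 0.40, adjusted p = 0.0110). Ier5 rose by 0.89 in knockout (SE 0.20, adjusted p = 0.0116) and by 0.81 in wild type (SE 0.20, adjusted p = 0.0129). Dusp4, another MAP kinase phosphatase, fell by 0.85 in knockout (SE 0.17, adjusted p = 0.00666) and by 1.02 in wild type (SE 0.17, adjusted p = 0.00155).

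The list of upstream calcium, MAP kinase, CREB, SRF and MEF2 signalling held 40 genes, of which 29 were tested and 0 were called by genotype. Its median genotype difference was -0.031 on average, with 2 at an unadjusted limma p under 0.05. With age, 2 of the 29 rose and 3 fell in knockout, where 5.53% of all genes rose and 4.95% fell. In wild type 2 rose and 2 fell, where 10.8% of all genes rose and 8.56% fell. Cacna1d, a calcium channel subunit, fell by 0.69 in knockout (SE 0.18, limma adjusted p = 0.0238) and by 0.82 in wild type (SE 0.18, adjusted p = 0.00711). Crtc1, a co-activator of CREB, fell by 0.48 in knockout (SE 0.13, adjusted p = 0.0347) and by 0.57 in wild type (SE 0.13, adjusted p = 0.0107). Rps6ka3, a kinase that phosphorylates CREB, rose by 0.51 in wild type (SE 0.14, adjusted p = 0.0244) and differed by 0.46 in knockout (SE 0.14, adjusted p = 0.0549). Elk3, a partner of SRF, rose by 0.58 in wild type (SE 0.17, adjusted p = 0.0304) and differed by 0.39 in knockout (SE 0.17, adjusted p = 0.171). Creb1 itself differed by -0.22 between the genotypes (SE 0.12, adjusted p = 0.587).

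Lists of stress responses that also induce some of these genes held no called gene by genotype. Of 12 heat shock genes tested, 5 were higher in knockout on average (median -0.020), and of 12 hypoxia genes 8 were (median 0.026). Of 10 glucocorticoid response genes, 9 were higher, with a median of 0.18, led by the metallothioneins Mt2 (0.60, SE 0.23) and Mt1 (0.43, SE 0.20) and the sulfotransferase Sult1a1 (0.54, SE 0.24), each with a limma adjusted p of 0.576. An unadjusted limma p under 0.05 on average was held by 3 heat shock, 0 hypoxia and 3 glucocorticoid response genes. Their part in the member differences was not tested.

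Profile likeness was measured as the root mean square difference of standardised log2 levels over the 12 samples, where 0 is identity and 1.41 is expected of uncorrelated profiles. The genes most like Fos were Scp2 (0.309), Dnajb9 (0.436), Sppl2a (0.438), Bloc1s4 (0.440) and A330048O09Rik (0.457). Among the members, Dusp1 stood at 0.574 from Fos, Btg2 at 0.954 and Ier2 at 0.984, and Nr4a1 at 1.41, Npas4 at 1.43 and Fosb at 1.49. The genes most like the members' mean profile were Kptn (0.467), Ttc34 (0.550), Siah1a (0.578), Twf2 (0.590) and Furin (0.619). All of these values share the same 12 libraries and the group differences described above.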

How the data were processed

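The authors deposited 1 probe set signal per array and probe set, an intensity on a linear scale. Their software was not given in the sources used here. All arrays shared 1 trimmed mean (2% cut at each end), so each deposited array had been scaled by a single number. Here the signals were quantile-normalized as log2(signal + 16), and 1 probe set per gene was kept, the one with the highest mean. Genes whose mean was under the 40th percentile of probe sets (log2 level 8.72) were left out of the tests. Group means were fitted over all 12 arrays with limma 3.58.1 in R 4.3.3 (8 residual degrees of freedom). Adjusted p-values are Benjamini-Hochberg over all genes tested, and those of dim members come from the fit without the filter, over 18193 genes. A call means an adjusted p under 0.05, and intervals are 95%. Folds are 2 to the power of the log2 difference and understate changes of dim genes. Permutation tests were exact and two-sided. The groups share 1 estimate of the spread although the P0 groups varied more than the P5 groups, so p-values can be too small at P0 and too large at P5. The number of arrays limits the precision.

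The comparisons were knockout against wild type (at each age and on average), P5 minus P0 in each genotype, and their interaction, which gave 60 member differences. The alternatives were the deposited scaling, pseudocounts of 1 and 64, no filter, the second Btg2 probe set, the replicate number as a block, array weights, only the groups compared, and leaving out P0WT samples 1 and 2 together or each sample in turn. Same-numbered samples did not all deviate together, with correlations of 0.42, 0.38 and 0.06 between the genotypes at P0 and -0.10, -0.10 and -0.11 at P5. The numbers were therefore not taken to pair samples. At P0 the best match of P0KO samples 1 and 2 did carry the same number. The block shares 1 effect per number over both ages, so a pairing at P0 alone was not tested. The named genes are the 10 members, up to 4 genes per other list with the smallest p for age in wild type and up to 3 with the smallest p for the average genotype difference, and the 5 genes most like Fos and most like the members' mean. Members and lists were chosen with earlier results of these data known. Promoters are from RefSeq (GRCm38.p6).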

Additional observations from a re-analysis of the deposited data

How the results depend on the processing

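The 60 member differences were recomputed under 9 alternatives and with each of the 12 samples left out, except that the second probe set applies to Btg2 only and the fit of only the groups compared was not run for the average or the interaction. With array weights, 2 members were called at P0 (Fos and Btg2), 2 on average (the same 2) and 2 for age in knockout (Ier2 and Nr4a1), where 24.5%, 16.2% and 16.7% of all genes were called. P0WT sample 3 had a weight of 2.45, against 0.359 and 0.189 for P0WT samples 1 and 2. The weighted P0WT means thus rest mostly on 1 sample. Without both P0WT samples 1 and 2 the counts were 1, 1 and 2, where 4.51%, 0.451% and 17.2% of all genes were called. No filter left 0 calls for age in knockout, where Ier2 had an adjusted p of 0.0511, and the second Btg2 probe set left 1 in wild type. Leaving out 1 sample gave 0 to 1 calls at P0, 0 to 1 on average, 0 to 2 for age in knockout and 1 to 3 for age in wild type.

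The differences that changed sign were small or of dim genes. Junb at P0 was -0.014 with the deposited scaling and -0.14 without P0WT samples 1 and 2. Leaving out those samples also turned Npas4 at P0 (-0.23), on average (-0.44) and for age in wild type (-0.72), Ier2 on average (0.0061) and Nr4a1 for age in wild type (0.0021). Array weights turned Npas4 on average (-0.32) and for age in wild type (-0.44), and the second probe set turned Btg2 at P5 (-0.093). With 1 sample left out the ranges that crossed 0 were -1.44 to 0.21 for Arc with age in wild type, -0.33 to 0.82 for Arc at P0, -0.071 to 0.17 for Btg2 at P5, -0.15 to 0.0092 for the Dusp1 interaction, -0.083 to 0.16 for Egr1 and -1.30 to 0.10 for Fosb with age in knockout, -0.62 to 0.33 for Fosb at P0, -0.089 to 0.76 for Fosb, -0.063 to 0.033 for Ier2 and -0.15 to 0.34 for Npas4 on average, -0.18 to 0.19 for Junb at P0 and -0.086 to 0.019 for Nr4a1 at P5. Fos, Egr1 and Dusp1 kept their sign throughout in the genotype comparisons at P0, at P5 and on average. The cause of these changes was not tested.

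Over all genes, the calls ranged over the alternatives from 0 to 3084 at P0, 0 to 6 at P5, 1 to 2047 on average, 654 to 2180 for age in knockout, 1201 to 6030 for age in wild type and 0 to 1528 for the interaction, against 3, 1, 3, 1321, 2442 and 0. With the replicate number as a block the Fos average was 0.61 (adjusted p = 0.438), no member count changed, and the genes called at P0 numbered 1. The intervals of Fosb, Arc and Npas4, all dim, are wide, and 3 arrays per group limit all tests.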
